A study of Mus musculus with 35 samples.

Results

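Embryo-derived 3D EpiSCs, a mouse epiblast stem cell culture that grows as epithelial spheroids, were compared with the tissue of the stage they are derived from, the epiblast of the E5.5 mouse embryo. The comparison used 6 of the 27 bulk RNA libraries of the study, whose series lists 35 samples, with 3 libraries of the culture and 3 of the tissue. It asks which genes differ between the epiblast in the embryo and the same lineage kept in culture. Levels were measured in TPM, transcripts per 1e6 transcripts of a library. Of 54446 genes in the file, 10770 were tested: autosomal and protein-coding, not a replication-dependent histone (symbols starting Hist) or mitochondrial (mt-) gene, and above 2 TPM in at least 3 of the 6 libraries. The culture is labelled wild-type and was grown in Matrigel, a basement membrane gel, in medium with FGF2, ActivinA, XAV (an inhibitor of canonical Wnt signalling) and Noggin (an antagonist of BMP ligands). The tissue is labelled wild-type and untreated, of strain CD-1 and of male and female embryos. Each tissue library pools several epiblasts, dissected by hand to remove the outer layer of visceral endoderm and to cut away the ectoderm of the extra-embryonic part, and the epiblasts sequenced were not those that founded the culture. The study derived such cultures from CD1 and from LifeAct-GFP embryos, a strain with fluorescent actin filaments, and the label does not say which was sequenced. Nothing says whether its 3 libraries are separate lines or cultures, or whether the tissue pools come from separate litters, so p-values measure the spread between these libraries, which may be technical.

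The epiblast gives rise to all tissues of the embryo proper. Soon after implantation it forms a polarised epithelium around a lumen, leaves the naive state and becomes competent for gastrulation, with Fgf, Nodal and Wnt signals preparing the primitive streak. It lies against the visceral endoderm, an extra-embryonic layer that secretes serum proteins such as apolipoproteins and that also lays down basement membrane. Epiblast stem cells are held in this primed state by FGF and Activin, which acts through the Nodal receptors.

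The kits changed together with the groups. The culture libraries were made by poly-A capture and those of the tissue from total RNA after removal of ribosomal cDNA, so what the kit did and what the culture did cannot be told apart in this comparison. Replication-dependent histone genes, whose RNA has no poly-A tail, held 0.0698 to 0.0781% of the TPM of the culture libraries and 3.59 to 4.11% of the tissue libraries, and non-protein-coding nuclear genes held 9.65 to 10.4% and 27.2 to 30.2%. TPM was therefore rescaled by median-of-ratios factors, which were 1.23 to 1.24 in the culture and 0.789 to 0.835 in the tissue, and all levels below are rescaled TPM. TPM has a fixed sum and carries no read depth, which is therefore unknown here. Replicates 2 and 3 of the culture differed by a median of 0.05 on the log2 scale and each by 0.15 from replicate 1, the tissue libraries differed from each other by 0.11 to 0.12, and libraries of the different groups by 0.50 to 0.52. Means in the 3 other cultures of the study, ESC-derived 3D EpiSCs, 2D EpiSCs and EpiLCs (epiblast-like cells made from ESCs), are given beside some results, always in this order, since these cultures share the poly-A kit. Means at E4.5 and E6.5 share the kit of the tissue. Per the methods of the study, E4.5 epiblast was dissociated with trypsin and its cells picked by hand. Its RNA was also fragmented at another temperature and for another time than that of E5.5 and E6.5. The difference between the embryo-derived 3D EpiSCs and the mean of these 3 cultures, fitted over 12 libraries, is called the same-kit contrast. It shares the 3 embryo-derived libraries with the comparison itself. Per the methods of the study, ESC-derived 3D EpiSCs had the same medium in Matrigel, and 2D EpiSCs had FGF2 and Activin without XAV or Noggin. Medium and origin of the cells are therefore mixed in this contrast and cannot be told apart.

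Both groups expressed the markers of their labelled cell type. The summed level of 8 epiblast markers was 3362 to 3434 TPM in the culture and 4337 to 4415 TPM in the tissue. Most of the tissue sum is Dnmt3b, which averaged 2674 TPM there and 741 TPM in the culture. Otx2, Utf1 and Pou3f1 also had lower means in the culture, while Pou5f1, Sox2, Fgf5 and Tdgf1 had higher ones. The order of the 2 sums is therefore not a measure of epiblast identity. The tissue also held visceral endoderm RNA. The 10 visceral endoderm markers summed to 981 to 996 TPM in the E5.5 libraries and to 8.80 to 17.8 TPM in the culture, and at E6.5 to 1579 to 1734 TPM. Apoa1, a secreted apolipoprotein, was at 439, 451 and 430.2 TPM in the 3 tissue libraries and at 0.521, 0.511 and 0.562 TPM in the culture. Ttr (transthyretin) and Afp (alpha-fetoprotein) were at 101.3, 102 and 109 and at 95.7, 99.6 and 102 TPM in the tissue and listed at 0 in all 3 culture libraries. The 3 pools were close to each other at these genes. Of the wider list of 22 tested visceral and primitive endoderm genes, 19 were lower in the culture (11.4% of all genes were) and 1, the homeobox gene Hhex, was higher, and 13 passed the filter through the tissue alone. Extra-embryonic ectoderm markers (8 genes) summed to 111 to 124 TPM in the tissue and 52.2 to 102 TPM in the culture, and most of both sums is Eomes, which epiblast cells also express. Of 15 tested genes of extra-embryonic ectoderm and trophoblast 10 were lower and 1, Ascl2, was higher (1 higher and 5 lower without rescaling), and 4 passed through the tissue alone. The defining markers Cdx2 and Elf5 were at 2.68, 3.77 and 4.03 and at 6.40, 3.43 and 4.71 TPM in the tissue. Markers of maternal blood and decidua (6 genes) summed to at most 3.07 TPM and those of fibroblasts (6 genes) to at most 8.43 TPM in the 6 libraries. In bulk RNA, fewer cells of a type and less RNA per cell cannot be told apart.

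**Figure D1:**
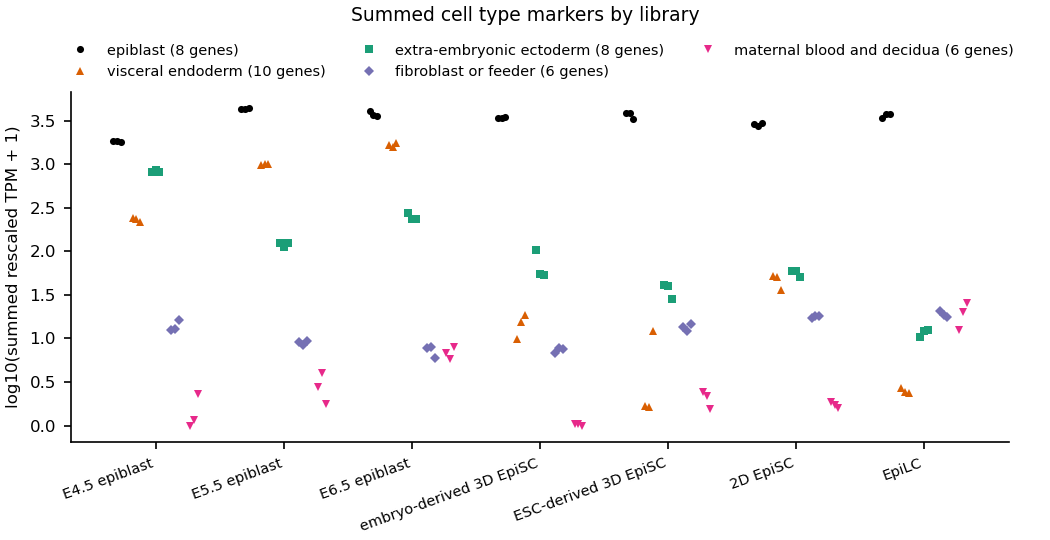
Summed rescaled TPM of fixed marker genes of 5 cell types, on a log10 scale with 1 added, for each library (1 point per library, 3 per group) of 3 epiblast stages and 4 cultures. Visceral endoderm markers summed to 981 to 996 TPM at E5.5 and to 8.80 to 17.8 TPM in embryo-derived 3D EpiSCs, while epiblast markers summed to 3362 TPM or more in both groups.

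In all, 1000 genes (9.29% of those tested) were higher and 1224 (11.4%) were lower in the culture than in the tissue (limma on log2(TPM + 1), with a gene called where the adjusted p was under 0.05 and the difference over 1 log2 unit, that is 2-fold). Values after a level are log2 fold changes, culture minus tissue, ± the standard error, n = 3 libraries per group. The median log2 fold change over all tested genes was 0.00, and the libraries of the groups did not overlap at 75.7% of them. A further 5380 genes passed the adjusted p but differed by 2-fold or less. The larger changes were downward: 114 genes were lower by more than 3 log2 units and 41 were higher by as much. Without rescaling the median of all genes was 0.55, and 2845 genes were higher and 580 lower, so the balance between the directions rests on the scaling, and changes are read here relative to the median gene. Of the 1224 lower genes, 289 had a mean below 1 TPM in the culture, and 74 had a mean below 1 TPM in all 4 cultures.

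**Figure D2:**
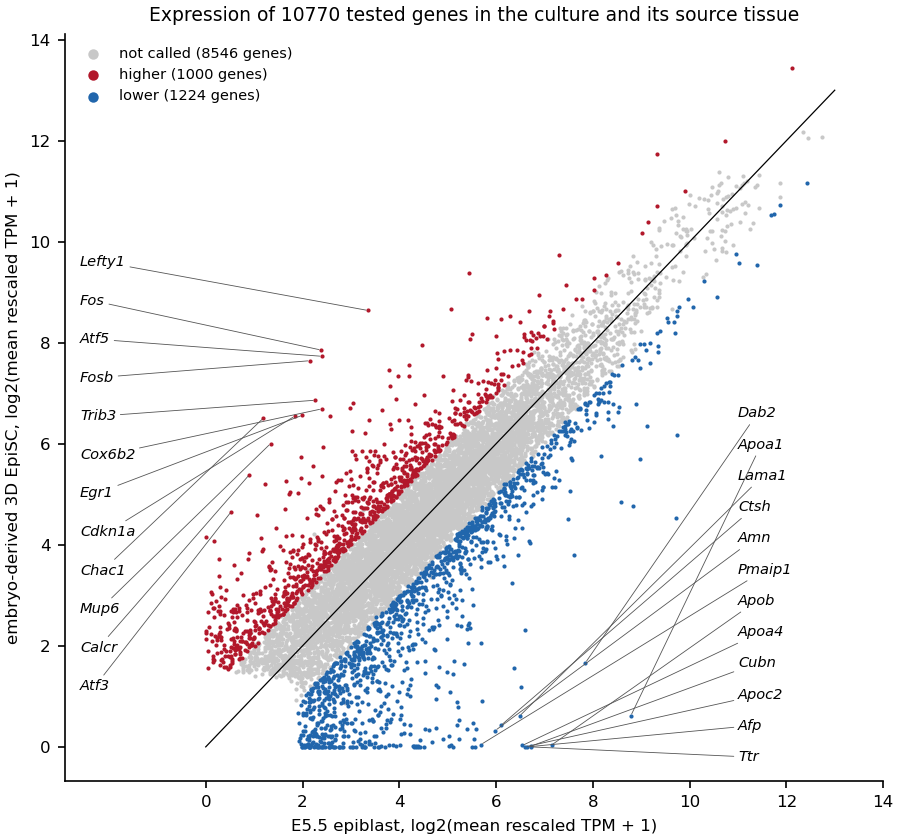
Mean level of each of the 10770 tested genes in E5.5 epiblast (x axis) and embryo-derived 3D EpiSCs (y axis), as log2(mean rescaled TPM + 1), n = 3 libraries per group. Genes called higher in the culture (1000) are red, genes called lower (1224) are blue, the line marks equal levels, and 12 genes of each colour are labelled, those of the largest change. The lowest points on the right are visceral endoderm genes such as Apoa1.

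The 12 genes with the largest increase, among those whose libraries did not overlap and whose higher group averaged at least 10 TPM, were Fos, Chac1, Lefty1, Fosb, Atf5, Cdkn1a, Mup6, Calcr, Trib3, Egr1, Cox6b2 and Atf3. They fall into immediate early genes (Fos, Fosb, Egr1), genes of the integrated stress response (Chac1, Atf5, Trib3, Atf3), the Nodal inhibitor Lefty1 (ENSMUSG00000038793.8, chr1:180935022-180938400 on mm10), the cell cycle inhibitor Cdkn1a, the calcitonin receptor Calcr and Cox6b2, a subunit of cytochrome c oxidase best known from testis. Mup6 (70.9, 58.9 and 59.8 TPM in the culture, 1.38, 1.94 and 1.28 in the tissue) belongs to a family of near-identical major urinary protein genes, so its value is uncertain. The 12 genes with the largest decrease were Apoa1, Apob, Ttr, Cubn, Afp, Apoc2, Apoa4, Dab2, Lama1, Ctsh, Amn and Pmaip1. Of these, Apoa1, Apob, Apoc2 and Apoa4 are apolipoproteins, Cubn and Amn are the subunits of the cubam receptor for protein uptake, Dab2 is an endocytic adaptor, Lama1 is a laminin chain and Ctsh is a lysosomal protease. Pmaip1 (Noxa) is a pro-apoptotic BH3-only gene. It was at 0, 0 and 0.0953 TPM in the culture and at 48.6, 50.8 and 52.1 TPM in the tissue (-5.64 ± 0.07, adjusted p = 2.24e-08), and at 4.43, 2.87 and 79.3 TPM in ESC-derived 3D EpiSCs, 2D EpiSCs and EpiLCs. Dab2 and Lama1 were at 1.78, 2.26 and 2.46 and at 0.466, 0.533 and 0.583 TPM in the culture, against 233, 228 and 226 and 87.0, 88.7 and 90.3 TPM in the tissue. Apoa1, Ttr, Cubn, Afp, Apoa4 and Amn are themselves among the 10 visceral endoderm markers, so they move with that sum by construction. Pmaip1 averaged 50.5 TPM at E5.5 and 47.0 TPM at E6.5, where the sum went from 981 to 996 TPM to 1579 to 1734 TPM. The part of visceral endoderm in Pmaip1 and in the other genes outside that sum was not tested.

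Most general pluripotency genes differed by less than 2-fold. Of 14 tested, 2 were higher and 2 were lower (14.3% each, against 9.29% and 11.4% of all genes), and the rest were not called. The median log2 fold change was -0.25, and without rescaling 4 were higher and 1 lower. Pou5f1 (Oct4), the central factor of the network, was at 1385, 1513 and 1541 TPM in the culture and at 821, 829.8 and 876 TPM in the tissue, a difference of 0.81 ± 0.07 (log2 fold change ± standard error) that is below the threshold for a call. Sox2, its partner, was at 80.9, 87.6 and 83.4 TPM against 47.5, 41.4 and 49.0 (0.86 ± 0.09), also not called. For both genes every culture library was above every tissue library, and the groups were likewise without overlap, in either direction, at 75.7% of all tested genes. Nanog was called: it was at 195, 143 and 148 TPM in the culture and at 32.4, 30.2 and 24.6 TPM in the tissue (2.43 ± 0.15, adjusted p = 1.69e-05), and replicate 1 of the culture was the highest. Nanog was higher than in the other cultures as well, where it averaged 127, 80.0 and 64.6 TPM (same-kit contrast 0.89 ± 0.14, adjusted p = 0.000499), a difference under 1 log2 unit. Tdgf1 (Cripto), a co-receptor of Nodal, was the other higher member, at 501, 338 and 339 TPM against 100.4, 108 and 96.0 (1.92 ± 0.16, adjusted p = 5.76e-05). The lower members were Gdf3, a TGF-beta family ligand, and Trim71, an RNA-binding ubiquitin ligase, with 0.154 against 3.62 TPM for Gdf3 and 54.8 against 126 TPM for Trim71 (group means).

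Several naive genes were present at low levels in the E5.5 tissue and near 0 in the culture. Of 20 naive genes, 13 were tested. Of these, 9 were lower (69.2%, against 11.4% of all genes) and 2 were higher (15.4%, against 9.29%). As 8 of the 13 passed the filter on low values through the tissue alone and 1 through the culture alone, the count is a description. Dppa5a was at 44.9, 39.1 and 39.4 TPM in the tissue and at 0.588, 0.113 and 0.151 TPM in the culture (-5.05 ± 0.15, adjusted p = 6.84e-07), and Dppa4 at 33.2, 29.6 and 32.1 against 0.213, 0.193 and 0.0788 TPM (-4.81 ± 0.08, adjusted p = 6.78e-08). Zfp42 (Rex1), a marker of naive cells, was at 8.52, 8.86 and 9.19 TPM in the tissue and listed at 0 in all 3 culture libraries, and so was Dppa3 (Stella), at 7.03, 8.67 and 9.35 TPM in the tissue. Esrrb, an orphan nuclear receptor of the naive network, was at 11.98, 7.87 and 10.1 against 0.365, 0.468 and 0.436 TPM (-2.93 ± 0.14, adjusted p = 5.45e-06). At E4.5 these levels were far higher: Zfp42 averaged 278, Dppa5a 922 and Esrrb 88.9 TPM. The 8 extra-embryonic ectoderm markers also summed to more at E4.5, to 812 to 848 TPM against 111 to 124 TPM at E5.5. The part of extra-embryonic cells in the E4.5 levels was not tested. Esrrb averaged 9.97 TPM at E5.5 and 17.5 TPM at E6.5 (E5.5 minus E6.5 -0.77 ± 0.14, adjusted p = 0.00381, limma). Zfp42 was close at both stages (-0.10 ± 0.09, adjusted p = 0.513). Dppa5a, Dppa4 and Dppa3 were instead higher at E5.5 (0.88 ± 0.24, 1.61 ± 0.13 and 0.61 ± 0.21). The extra-embryonic ectoderm markers summed to 235 to 273 TPM at E6.5. The part of extra-embryonic cells in the E5.5 levels of these genes was not tested. Tbx3 was also lower in the culture (-3.93). Its mean was 14.3 TPM at E5.5 and 22.3 TPM at E6.5 (E5.5 minus E6.5 -0.60 ± 0.10, adjusted p = 0.00208), as with the visceral endoderm markers, whose part in it was not tested. The Krüppel-like factors Klf2 and Klf4 went the other way. Klf2 was at 12.1, 7.19 and 7.63 TPM in the culture and at 0.647, 0.812 and 0.238 TPM in the tissue (2.66 ± 0.21, adjusted p = 5e-05), and Klf4 at 18.9, 11.1 and 11.3 against 4.18, 4.64 and 4.61 TPM (1.39 ± 0.19, adjusted p = 0.000577). Klf4 averaged 14.52, 2.72 and 1.87 TPM in the other cultures, so it was high in both 3D cultures and low in 2D EpiSCs and EpiLCs.

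Genes of the postimplantation epiblast differed in both directions. Of 20 formative and primed genes, 2 were higher (10%, against 9.29% of all genes), 7 lower (35%, against 11.4%) and 11 not called (3 higher and 4 lower without rescaling). Of the 7 lower ones, 3 are the methyltransferase genes described below. Otx2, a master regulator of the exit from naive pluripotency, was at 154, 144 and 153 TPM in the culture and 179, 159 and 166 TPM in the tissue (-0.16 ± 0.07), a difference that was not called and whose sign is positive without rescaling. Fgf5, the classical marker of postimplantation epiblast, was higher in the culture, at 275, 278 and 291 against 119, 123 and 129 TPM (1.18 ± 0.07, adjusted p = 1.17e-05). Pou3f1 (Oct6) was lower, at 23.2, 27.6 and 28.6 against 88.1, 87.9 and 98.7 TPM (-1.76 ± 0.10, adjusted p = 1.2e-05), and it averaged 51.2, 50.6 and 147 TPM in the other cultures (same-kit contrast -1.41 ± 0.16, adjusted p = 4.04e-05). Nkx1-2, a gene of the caudal epiblast, was the second higher gene, at 5.28, 5.99 and 5.53 against 0.543, 0.227 and 0.635 TPM (2.18 ± 0.12, adjusted p = 9.9e-06).

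Genes of the enzymes that write and remove DNA methylation were lower or not called. Of 17 tested, 7 were lower (11.4% of all genes were) and none was higher, with a median of -0.81 (1 higher and 5 lower without rescaling). The filter was passed by 2 of the 17 through the tissue alone. Dnmt3b, the main de novo methyltransferase of the epiblast, was among the most abundant genes of the tissue at 2665, 2687 and 2669.6 TPM, and was at 747, 737 and 739.6 TPM in the culture (-1.85 ± 0.06, adjusted p = 1.09e-06). Dnmt3a was at 307, 301 and 253 TPM in the tissue and 45.2, 57.1 and 56.9 TPM in the culture (-2.42 ± 0.12, adjusted p = 7.58e-06). Their catalytically inactive cofactor Dnmt3l was at 20.3, 19.4 and 22.1 TPM in the tissue and at 0, 0.234 and 0.0656 TPM in the culture (-4.30 ± 0.10, adjusted p = 2.8e-07). Tet1, a dioxygenase that oxidises methylcytosine, was at 127, 124 and 115 against 28.5, 34.5 and 35.1 TPM (-1.87 ± 0.10, adjusted p = 8.26e-06). The groups did not overlap at any of these 4 genes, nor at 75.7% of all tested genes. In the other cultures Dnmt3b averaged 853, 706 and 1179 TPM in ESC-derived 3D EpiSCs, 2D EpiSCs and EpiLCs, Dnmt3a 64.4, 46.7 and 289.5 TPM and Dnmt3l 0.0766, 0.297 and 140.1 TPM. In EpiLCs the spread over the 3 libraries was wide, at 289.5 ± 207 TPM for Dnmt3a and 140.1 ± 42.9 TPM for Dnmt3l (SD, n = 3). Dppa3, counted with this list and the naive one, was listed at 0 in the culture, and Dnmt3c, a near-copy of Dnmt3b whose reads may be shared with it, was lower too.

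**Figure D3:**
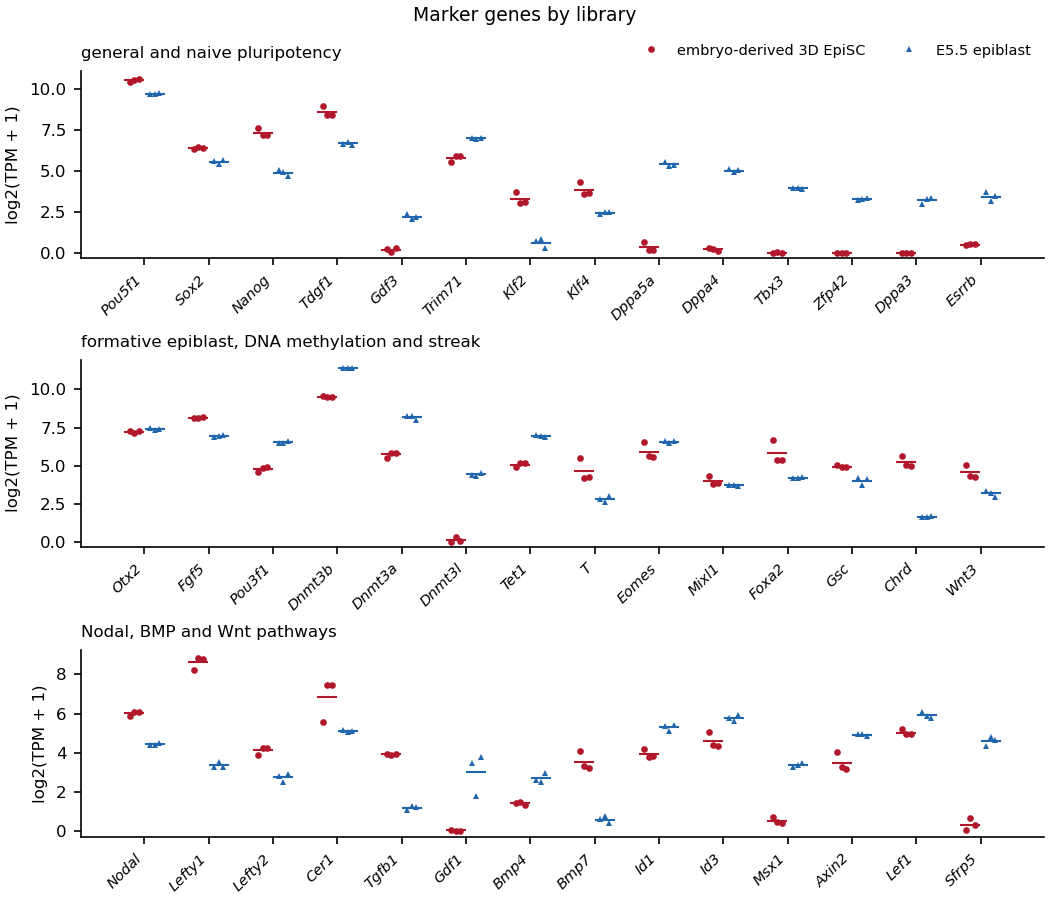
Level of 42 marker and pathway genes in each library, as log2(rescaled TPM + 1), for embryo-derived 3D EpiSCs (red circles) and E5.5 epiblast (blue triangles). Each point is 1 library and each bar the mean of 3. The groups are apart at Nanog, at the naive genes from Dppa5a to Esrrb, at Dnmt3l, Chrd and Lefty1, and close at Otx2, Mixl1 and Eomes.

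Germline genes, which DNA methylation keeps silent in somatic cells, were near 0 in the culture. Of 28 listed, 11 were tested, of which 10 were lower (90.9%, against 11.4% of all genes) and 1 was higher (9.09%, against 9.29%). But 9 of the 11 passed the filter through the tissue alone, so this count is a description. Ddx4 (the germ cell helicase Vasa) was at 9.68, 10.4 and 10.5 TPM in the tissue and listed at 0 in every culture library, and Sycp3, a protein of the meiotic chromosome axis, was at 17.3, 21.4 and 14.3 against 0.176, 0.163 and 0.219 TPM (-3.96 ± 0.14, adjusted p = 1.52e-06). Mael, a protein of transposon silencing by piRNAs, was at 4.36, 5.53 and 4.70 TPM in the tissue and listed at 0 in the culture. Tdrkh, a Tudor protein of the same pathway, was the higher member (1.79 ± 0.16, adjusted p = 7.28e-05). Rpl10l and Tuba3a, also lower, are close copies of widely expressed genes, so their values are uncertain. Promoters of such genes are known to be bound by the MGA and MAX factors at the E-box CACGTG. The window from 250 bases before to 50 after the start was held by RefSeq for all 11 genes on GRCm38.p6, and 5 of the 11 windows contained CACGTG (a palindrome, so the same on both strands), against 7.15% of all 32851 windows. The windows held 11 to 38 CG dinucleotides, and the median over all windows was 7. CACGTG itself contains a CG, and the 7.15% is over windows not matched for CG content. With 9 of the 11 genes tested through the tissue alone, this share is a description too. The 250 bases before the start are shown, 5′ to 3′ on the strand of the gene with CACGTG in capitals, for the 3 lower genes with the largest change among those with a match, Sycp3 (chr10:88459337-88459586, plus strand), Ddx4 (chr13:112652311-112652560, minus strand) and Mael (chr1:166238745-166238994, minus strand).
Sycp3: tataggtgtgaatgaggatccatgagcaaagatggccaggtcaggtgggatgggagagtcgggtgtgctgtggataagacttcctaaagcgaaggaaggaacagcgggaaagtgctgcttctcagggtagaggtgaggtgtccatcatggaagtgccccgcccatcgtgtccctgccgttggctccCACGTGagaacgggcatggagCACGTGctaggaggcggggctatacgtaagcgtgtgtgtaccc
Ddx4: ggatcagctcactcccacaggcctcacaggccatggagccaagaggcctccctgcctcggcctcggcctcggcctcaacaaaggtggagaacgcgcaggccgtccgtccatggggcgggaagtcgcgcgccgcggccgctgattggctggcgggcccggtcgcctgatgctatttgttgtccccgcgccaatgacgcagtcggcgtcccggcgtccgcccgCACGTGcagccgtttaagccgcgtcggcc
Mael: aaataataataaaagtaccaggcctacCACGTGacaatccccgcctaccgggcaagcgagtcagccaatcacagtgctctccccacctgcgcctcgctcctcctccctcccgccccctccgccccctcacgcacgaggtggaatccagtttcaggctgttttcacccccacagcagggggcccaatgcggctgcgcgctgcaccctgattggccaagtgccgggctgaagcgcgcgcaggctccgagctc

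In Sycp3 the E-boxes began 64 and 43 bases before the start, in Ddx4 29 bases before it and in Mael 223 bases before it. A match describes the letters in this window and is not evidence that a factor is bound.

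Genes of the primitive streak were split. Of 13 tested, 4 were higher and 4 lower (30.8% each, against 9.29% and 11.4% of all genes). Without rescaling 6 were higher and 3 lower. The filter was passed by 2 of the 13 through the tissue alone and by 1 through the culture alone. The higher genes were T, Foxa2, Chrd and Wnt3, of which Foxa2 and Chrd mark the anterior streak and the tissues it gives rise to. Chrd (chordin, a secreted BMP antagonist) was at 49.7, 31.4 and 30.6 TPM in the culture and 2.09, 2.10 and 2.25 TPM in the tissue (3.57 ± 0.18, adjusted p = 7.38e-06), and averaged 9.16, 7.14 and 2.02 TPM in the other cultures (same-kit contrast 2.60 ± 0.21, adjusted p = 3.55e-06). Foxa2, a forkhead factor, was at 99.8, 40.5 and 40.9 against 17.5, 17.6 and 17.9 TPM (1.58 ± 0.33, adjusted p = 0.00417), with 24.7, 22.6 and 0.565 TPM in the other cultures (same-kit contrast 2.54 ± 0.27, adjusted p = 3.03e-05). T (Brachyury), the pan-streak marker, was at 44.4, 17.3 and 17.8 against 5.97, 5.29 and 7.20 TPM (1.81 ± 0.35, adjusted p = 0.00277). At T, Foxa2 and Chrd replicate 1 of the culture was the highest library, and replicates 2 and 3 were above every tissue library. Goosecoid (Gsc), another gene of the anterior streak, was at 31.4, 29.1 and 29.1 against 17.0, 12.2 and 16.4 TPM, just under the threshold (0.94 ± 0.13, adjusted p = 0.000511). The lower genes were Evx1, Hand1, Snai1 and Pdgfra, which are genes of the posterior streak and of mesoderm. Pdgfra is also a marker of primitive and visceral endoderm, whose summed markers were at 981 to 996 TPM in the tissue and 8.80 to 17.8 TPM in the culture, and their part in it was not tested. Evx1 was at 7.31, 5.19 and 6.00 TPM in the tissue and 0.374, 0.0935 and 0 TPM in the culture (-2.64 ± 0.15, adjusted p = 1.27e-05), and Hand1, which extra-embryonic tissues also express, at 4.60, 2.99 and 4.43 against 0.0551, 0 and 0.0276 TPM. Mixl1 (0.29 ± 0.14) and Eomes (-0.66 ± 0.26) were not called, and at Eomes the groups overlapped, with 94.5, 48.0 and 47.0 TPM in the culture and 98.3, 89.2 and 98.0 TPM in the tissue. The definitive and visceral endoderm factor Sox17 was lower (2.99, 5.83 and 8.63 against 17.8, 16.3 and 16.2 TPM, -1.47 ± 0.29, adjusted p = 0.00323), and Gata6 was not called (-0.56 ± 0.20). Of 8 tested genes of neuroectoderm, Nefl was higher and Sox11 lower (5 higher and 0 lower without rescaling). The neural genes Sox1 and Pax6 were below the filter of 2 TPM, with at most 0.181 and 0.339 TPM in any of the 6 libraries.

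Nodal, its co-receptor and its feedback inhibitors were higher in the culture, which is supplied with Activin. Of 21 pathway genes, 7 were higher and 5 lower (33.3% and 23.8%, against 9.29% and 11.4% of all genes). Without rescaling 10 were higher and 2 lower. The filter was passed by 2 of the 21 through the tissue alone and by 1 through the culture alone. The ligand Nodal was at 57.7, 67.6 and 66.1 TPM in the culture and at 19.96, 20.2 and 21.2 TPM in the tissue (1.59 ± 0.08, adjusted p = 7.99e-06). Its feedback inhibitor Lefty1 was at 296, 451 and 446 TPM against 8.66, 10.3 and 8.73 TPM (5.26 ± 0.17, adjusted p = 1.24e-06), so the ratio of means was 43.0-fold. All other cultures also held Lefty1 above the tissue, at 174, 174 and 146 TPM, and the embryo-derived culture was higher still (same-kit contrast 1.26 ± 0.16, adjusted p = 0.000105). Lefty2 was at 13.9, 17.8 and 17.8 against 6.05, 4.63 and 6.49 TPM (1.38 ± 0.14, adjusted p = 0.000144), but below the other cultures, which averaged 24.9, 47.8 and 35.9 TPM (same-kit contrast -1.03 ± 0.15, adjusted p = 0.0003). The inhibitor Cer1 was at 46.1, 176 and 175 against 35.2, 32.3 and 33.0 TPM (1.72 ± 0.49, adjusted p = 0.0166), with replicate 1 far below replicates 2 and 3. Cer1 was not called with all groups in 1 fit (adjusted p = 0.0528, limma). The ligand Tgfb1 was higher as well (2.73). The lower genes were Gdf1 and Gdf3, partners of Nodal in its dimers, the receptor Acvr2b, the Activin antagonist Fst (-1.22) and the convertase Pcsk6 (-1.35). Gdf1 was at 10.02, 2.44 and 12.9 TPM in the tissue and at most 0.0415 TPM in the culture. Gdf1 shares its transcript with Cers1, so its level is uncertain.

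The medium of the culture contains Noggin. Of 17 tested pathway members and targets of BMP, 8 were lower (47.1%, against 11.4% of all genes) and 2 higher (11.8%, against 9.29%). Among the 17, 4 passed the filter through the tissue alone and 2 through the culture alone, so the count is in part a description. The median was -0.89, and without rescaling 3 were higher and 4 lower. Id1 and Id3, known targets, were at 17.4, 12.6 and 13.3 and at 32.6, 19.7 and 19.08 TPM in the culture, against 39.9, 33.1 and 41.9 and 53.1, 48.9 and 60.7 TPM in the tissue (-1.36 ± 0.14 and -1.19 ± 0.20), and neither was called without rescaling (-0.79 and -0.61). Id4, of the same family but below the filter of 2 TPM, was at 1.15, 1.39 and 1.25 TPM in the culture and 0.251, 0.46 and 0.532 TPM in the tissue. Msx1 was at 0.632, 0.373 and 0.304 against 8.72, 9.34 and 10.3 TPM (-2.87 ± 0.11, adjusted p = 2.19e-06), and Msx2 was lower by 1.99 on the log2 scale. The gene of Noggin itself, Nog, was lower as well (-2.13). The ligand Bmp4 was at 1.72, 1.76 and 1.55 against 5.03, 4.75 and 6.86 TPM (-1.28 ± 0.13, adjusted p = 0.000118). In the embryo Bmp4 comes chiefly from the extra-embryonic ectoderm, whose markers also differed and whose part was not tested. Bmp7 was higher, with 0.511, 0.698 and 0.31 TPM in the tissue and 16.3, 8.86 and 8.21 TPM in the culture (2.96 ± 0.24, adjusted p = 5.29e-05). The same-kit contrasts of Id1 and Id3 were within their errors (0.01 ± 0.24, adjusted p = 0.983 and 0.05 ± 0.21, adjusted p = 0.882). They average ESC-derived 3D EpiSCs, grown with Noggin, with 2D EpiSCs, grown without it, and with EpiLCs, so they do not measure an effect of Noggin.

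Wnt genes gave no common direction. Of 17, 4 were higher (23.5%, against 9.29% of all genes) and 2 lower (11.8%, against 11.4%), in a medium that holds the Wnt inhibitor XAV. Without rescaling 4 were higher and 1 lower. Axin2, a direct target of beta-catenin, was at 15.7, 8.63 and 7.95 TPM in the culture and 30.2, 29.6 and 27.9 TPM in the tissue (-1.42 ± 0.23, adjusted p = 0.00118), and Lef1 at 35.7, 29.8 and 30.1 against 66.2, 58.0 and 53.1 TPM (-0.87 ± 0.11), below the threshold. Lgr5, a receptor for R-spondins, was higher, at 6.65, 6.34 and 6.13 against 0.226, 0.0553 and 0.174 TPM (2.68 ± 0.08, adjusted p = 7.99e-07), and so was the ligand Wnt3, at 32.7, 18.9 and 18.6 against 9.30, 8.27 and 6.89 TPM (1.38 ± 0.22, adjusted p = 0.00125). Among the culture libraries Axin2, T and Wnt3 were each highest in replicate 1. T and Cer1 were the other higher members. Sfrp5, a secreted antagonist made by the anterior visceral endoderm, averaged 23.3 ± 3.83 TPM (SD, n = 3) in the tissue and was at 0.0273, 0.558 and 0.218 TPM in the culture (-4.27 ± 0.18, adjusted p = 3.55e-06).

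Of 22 genes of FGF signalling and its feedback, 2 were higher (Fgf5 and Etv1) and 9 lower, in cells that are given FGF2. These are 9.09% and 40.9%, against 9.29% and 11.4% of all genes (8 higher and 6 lower without rescaling). Among the 22, 3 passed the filter through the tissue alone, so the count is in part a description. The ligand Fgf4 was at 3.62, 3.04 and 3.75 TPM in the culture and 15.9, 14.9 and 14.6 TPM in the tissue (-1.85 ± 0.08, adjusted p = 4.92e-06), and the ERK phosphatase Dusp4 at 23.6, 15.9 and 16.1 against 54.9, 63.6 and 59.6 TPM (-1.65 ± 0.16, adjusted p = 9.82e-05). Phlda1 (-2.92), Fgfr4 (-2.52), Fgf10 (-1.92) and Fgfr3 (-1.79) were also lower. In the LIF and STAT3 list 3 of 14 genes were lower and 2 higher, also without rescaling. Pim1, a STAT3 target kinase, was at 3.46, 3.01 and 2.95 against 41.9, 39.4 and 44.1 TPM (-3.37 ± 0.08, adjusted p = 3.35e-07), and the LIF receptor Lifr was lower (-2.22). Of 8 tested genes of retinoic acid metabolism and response, 5 were lower and 1, the retinal reductase Dhrs3, higher (2 higher and 3 lower without rescaling). Cyp26a1, which degrades retinoic acid, was at 15.1, 15.4 and 15.6 against 109.6, 100.3 and 99.7 TPM (-2.67 ± 0.07, adjusted p = 4.3e-07), and Stra6, the receptor that takes up retinol, at 0.205, 0.457 and 0.612 against 11.96, 9.48 and 8.58 TPM (-2.95 ± 0.15, adjusted p = 7.38e-06). The visceral endoderm markers differ in the same direction as Cyp26a1, Stra6 and Fgf10, and their part was not tested.

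Of the 37 lists, the integrated stress response had the highest share of increases. Its factor Atf4 is translated when cells lack amino acids or fold proteins poorly, and it switches on amino acid synthesis and transport. Of 32 tested genes, 26 (81.2%) were higher and none was lower, against 9.29% of all genes, and the median was 2.15. Among the 32, 3 passed the filter through the culture alone, so the count is in part a description. The other 6 (Wars, Gars, Aars, Phgdh, Cebpg and Cebpb) had positive log2 fold changes below 1. Chac1, which degrades glutathione, was at 79.1, 98.2 and 92.5 TPM in the culture and 1.59, 0.89 and 1.37 TPM in the tissue (5.32 ± 0.14, adjusted p = 4.31e-07). Trib3, a pseudokinase that restrains Atf4, was at 54.2, 146 and 146 against 3.03, 5.15 and 3.21 TPM (4.49 ± 0.39, adjusted p = 7.07e-05), and Atf3 at 25.02, 24.1 and 23.4 against 0.396, 0.511 and 0.41 TPM (4.13 ± 0.07, adjusted p = 6.54e-08). In the serine pathway, Psat1 was at 374, 811 and 809 against 42.2, 44.1 and 41.0 TPM (3.85 ± 0.29, adjusted p = 3.73e-05). Asns, which makes asparagine, was at 196, 513 and 506 against 31.8, 33.5 and 31.9 TPM (3.48 ± 0.36, adjusted p = 0.000142). Atf4 itself was at 408, 501 and 492 against 199.6, 209.6 and 195 TPM (1.21 ± 0.10, adjusted p = 4.79e-05). The libraries of the groups did not overlap at any of these genes, nor at 75.7% of all tested genes.

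The culture libraries were not alike in this response. Atf5 was at 29.7, 302 and 304 TPM in replicates 1, 2 and 3, and replicate 1 was the lowest at Trib3, Asns and Psat1 as well. The median of the list was 1.23 in replicate 1 and up to 2.58 in the others, relative to the tissue mean. Without replicate 1, 29 of the 32 genes were higher, and without replicate 2 or 3, 26 were. Chac1 averaged 69.2, 3.00 and 9.64 TPM and Asns 309, 102 and 141 TPM in ESC-derived 3D EpiSCs, 2D EpiSCs and EpiLCs, which for both genes lies between the means of the tissue and of the embryo-derived culture. With the same kit, the embryo-derived culture was above the mean of the other 3 at Chac1 (2.80 ± 0.40, adjusted p = 0.000258), Trib3 (2.51 ± 0.36, adjusted p = 0.000258) and Atf5 (2.51 ± 0.55, adjusted p = 0.00417). Ddit4, which restrains mTORC1, averaged 111 TPM in the embryo-derived culture, 7.28 TPM in the tissue and 135, 256 and 78.4 TPM in the other cultures (same-kit contrast -0.24 ± 0.40, adjusted p = 0.678).

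Atf4 and its partners bind the element TGATGNAA (both strands searched; N is any base). RefSeq windows were matched for 29 of the 32 genes (33 windows), 10 of the windows held it, and 3.97% of all 32851 windows did. The 250 bases before the start are shown, 5′ to 3′ on the strand of the gene with the element in capitals on whichever strand it matched, for the 4 higher genes with the largest change among those with a match before the start: Chac1 (chr2:119350992-119351241, plus strand), Atf3 (chr1:191183334-191183583, minus strand), Asns (chr6:7693210-7693459, minus strand) and Pck2 (chr14:55540016-55540265, plus strand), all on GRCm38.p6. These promoters were chosen after the values were seen.
Chac1: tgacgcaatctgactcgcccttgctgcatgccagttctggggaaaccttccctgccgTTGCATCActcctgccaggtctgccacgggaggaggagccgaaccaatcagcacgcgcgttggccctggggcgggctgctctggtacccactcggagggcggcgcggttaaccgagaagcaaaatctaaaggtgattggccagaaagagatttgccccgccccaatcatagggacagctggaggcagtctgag
Atf3: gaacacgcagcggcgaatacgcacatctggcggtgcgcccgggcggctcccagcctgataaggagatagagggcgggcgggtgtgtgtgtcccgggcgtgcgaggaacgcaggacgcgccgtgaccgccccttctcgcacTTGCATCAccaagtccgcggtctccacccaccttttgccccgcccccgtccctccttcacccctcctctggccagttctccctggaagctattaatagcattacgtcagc
Asns: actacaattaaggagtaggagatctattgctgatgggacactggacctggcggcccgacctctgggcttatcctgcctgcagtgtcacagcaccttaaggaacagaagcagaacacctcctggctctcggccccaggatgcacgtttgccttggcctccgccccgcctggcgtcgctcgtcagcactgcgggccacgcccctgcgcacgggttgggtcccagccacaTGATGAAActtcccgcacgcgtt
Pck2: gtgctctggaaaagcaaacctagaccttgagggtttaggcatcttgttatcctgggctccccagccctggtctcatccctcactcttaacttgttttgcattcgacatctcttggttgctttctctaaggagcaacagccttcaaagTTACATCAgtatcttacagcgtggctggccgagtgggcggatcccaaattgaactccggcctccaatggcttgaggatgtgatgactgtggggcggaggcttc

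The element began 193 bases before the start of Chac1, 110 before that of Atf3, 23 before that of Asns and 103 before that of Pck2, which makes phosphoenolpyruvate in mitochondria and was at 103, 196 and 187 against 16.5, 15.5 and 19.9 TPM (3.11 ± 0.25, adjusted p = 4.65e-05). Trib3, whose match lies after the start, is not shown. Atf5, Psat1 and Ddit4, with some of the largest changes, had no match in these windows.

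Of 20 tested targets of p53, 11 were higher in the culture (55%, against 9.29% of all genes) and 1 was lower (16 higher and 1 lower without rescaling). Cdkn1a (p21), which blocks cyclin-dependent kinases, was at 96.5, 87.8 and 93.1 TPM in the culture and 2.69, 2.34 and 2.69 TPM in the tissue (4.71 ± 0.08, adjusted p = 6.04e-08). Ccng1 (cyclin G1) was at 251, 245 and 248 against 23.1, 20.1 and 20.2 TPM (3.49 ± 0.08, adjusted p = 2.3e-07), and the kinase Plk2 and the Akt inhibitor Phlda3 were at 3.08 and 2.93. All 4 cultures had higher means of these genes than the E5.5 and E6.5 epiblast. Cdkn1a averaged 47.6, 107 and 69.7 TPM and Ccng1 171, 224 and 252 TPM in the other 3, and at E6.5 they averaged 4.04 and 23.4 TPM. The lower member was Pmaip1, which averaged 4.43 TPM in ESC-derived 3D EpiSCs and 79.3 TPM in EpiLCs (same-kit contrast -3.47 ± 0.26, adjusted p = 1.61e-06). Its place on this list is set by its regulation by p53, and it promotes apoptosis rather than arrest. Sesn2 stands on this list and on that of the integrated stress response.

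Immediate early genes are switched on within minutes by growth factors and handling. Of 21 tested, 9 were higher (42.9%, against 9.29% of all genes) and 1, Ier5, was lower (13 higher and 1 lower without rescaling). Fos was at 368, 161 and 163 TPM in the culture and 3.53, 4.96 and 4.16 TPM in the tissue (5.37 ± 0.32, adjusted p = 1.41e-05), Fosb at 387, 106 and 104 against 3.42, 3.19 and 3.70 TPM (5.20 ± 0.48, adjusted p = 9.03e-05), and Egr1 at 159, 61.5 and 60.1 against 3.28, 2.76 and 2.89 TPM (4.42 ± 0.36, adjusted p = 5.02e-05). Replicate 1 was highest at all 3 genes, the reverse of its place at Trib3 and Asns. Fos averaged 253, 41.3 and 2.81 TPM in the other cultures, 553 TPM at E4.5 and 11.1 TPM at E6.5, so its level varied widely within each kit. The handling of the E4.5 cells also differed from that of the later stages. The list's median was 0.95, and 0.45 without replicate 1.

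Cholesterol synthesis had the next highest share of increases. Of 29 genes of cholesterol and related lipid synthesis and uptake, 21 were higher (72.4%, against 9.29% of all genes) and 1 was lower. The median was 1.47. Msmo1, a sterol demethylase, was at 246, 159 and 161 TPM in the culture and 18.02, 17.7 and 16.7 TPM in the tissue (3.33 ± 0.17, adjusted p = 7.63e-06), and Cyp51, the demethylase of lanosterol, at 116, 117 and 119 against 14.5, 13.6 and 14.7 TPM (2.95 ± 0.06, adjusted p = 2.3e-07). Hmgcs1, which makes HMG-CoA, was at 529, 279 and 274 against 54.3, 57.2 and 53.9 TPM (2.62 ± 0.25, adjusted p = 9.7e-05). The other cultures were higher still. Msmo1 averaged 385, 309 and 315 TPM and Hmgcs1 698, 772 and 484 TPM there, with same-kit contrasts of -0.83 ± 0.21, adjusted p = 0.00874 and -0.87 ± 0.23, adjusted p = 0.0135.

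**Figure D4:**
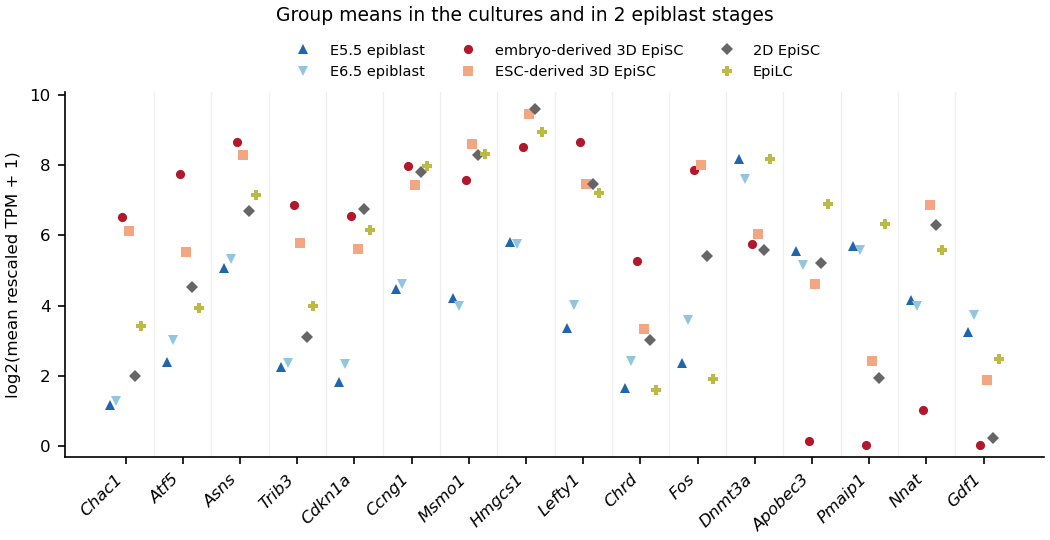
Mean level of 16 named genes, as log2(mean rescaled TPM + 1), n = 3 libraries per group, in 2 epiblast stages (triangles) and 4 cultures. Cdkn1a, Ccng1, Msmo1, Hmgcs1 and Lefty1 were high in every culture and low in both stages, while Apobec3, Pmaip1, Nnat and Gdf1 were lowest in embryo-derived 3D EpiSCs. The stages and the cultures were made with different kits.

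Other stress lists had fewer increases, and of all genes 9.29% were higher and 11.4% lower. Of 22 genes of the oxidative NRF2 response, 5 were higher and 1 lower (11 higher and 0 lower without rescaling). Among them, Slc7a11, the cystine transporter, was at 2.19, 7.37 and 6.89 against 0.183, 0.089 and 0.299 TPM (2.33 ± 0.35, adjusted p = 0.000938), and it stands on the integrated stress response list too. Of 23 heat shock and unfolded protein response genes, 8 were lower and 1 higher (2 higher and 2 lower without rescaling). The inducible chaperone Hspa1a was at 0.857, 1.19 and 1.00 TPM in the culture and 17.0, 17.7 and 17.98 TPM in the tissue (-3.20 ± 0.08, adjusted p = 4.07e-07), and the constitutive chaperone Hspa8 at 1739.6, 1402 and 1285 against 3088, 3377 and 3367 TPM (-1.16 ± 0.12, adjusted p = 0.000148). Herpud1, of the endoplasmic reticulum, was the higher one (2.15 ± 0.12, adjusted p = 1.04e-05). In the hypoxia list 3 of 21 were higher and 2 lower (5 higher and 0 lower without rescaling), but without replicate 1 the number lower was 8. Ndrg1 was at 65.3, 14.4 and 14.4 TPM against 3.18, 2.55 and 2.51 TPM (2.75 ± 0.54, adjusted p = 0.00328), with replicate 1 well above the others. In glycolysis 2 of 25 were higher and 3 lower (9 higher and 0 lower without rescaling), and 5 were lower without replicate 1. The glucose transporters Slc2a1 and Slc2a3 were among the lower ones, at 193, 99.9 and 89.0 against 279, 273 and 282 TPM and at 125, 131 and 168 against 335, 345 and 303 TPM. Slc2a1 lost its call without replicate 3 of the culture (-0.99).

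Basement membrane genes were lower at 9 of 19 tested (47.4%, against 11.4% of all genes) and higher at none, in a culture that is embedded in basement membrane gel. Without rescaling 2 were higher and 6 lower. Lama1 (log2 fold change -5.88), the collagen IV chains Col4a1 and Col4a2, and nidogen (Nid1) made up the largest differences. Col4a1 was at 10.6, 13.9 and 14.3 TPM in the culture and 187, 195 and 197 TPM in the tissue (-3.81 ± 0.12, adjusted p = 8.4e-07), and Nid1 at 1.73, 1.502 and 1.89 against 31.4, 33.3 and 35.6 TPM (-3.67 ± 0.08, adjusted p = 2.8e-07). The levels of Lama1, Col4a1, Col4a2 and Nid1 at E6.5, 109.7, 253, 123 and 41.9 TPM, were above those at E5.5, as were the visceral endoderm markers, whose part was not tested. Fibronectin (Fn1) was at 10.8, 12.1 and 11.9 against 51.4, 59.3 and 57.4 TPM (-2.17 ± 0.08, adjusted p = 2.55e-06) and averaged 18.9, 65.8 and 57.5 TPM in the other cultures (same-kit contrast -1.73 ± 0.18, adjusted p = 2.01e-05). Of 10 integrins and their adaptors, 2 were higher (20%, against 9.29% of all genes), the adaptors Ilk (1.41) and Parva (1.58). None was lower, and without rescaling 4 were higher and 0 lower.

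Neither E-cadherin nor N-cadherin was called. E-cadherin (Cdh1) was at 317, 276 and 281 TPM in the culture and 335, 327 and 323 TPM in the tissue (-0.18 ± 0.08, not called, positive without rescaling), and N-cadherin (Cdh2) at 21.1, 21.2 and 22.7 against 12.7, 15.3 and 14.8 TPM (0.57 ± 0.09, but 1.14 and called higher without rescaling). Of 18 cadherin and EMT genes, 4 were lower (Fn1, Mmp2, Snai1 and Grhl2) and none was higher (3 higher and 3 lower without rescaling). These 4 are 22.2%, against 11.4% of all genes. Of 28 genes of apical polarity, the lumen and tight junctions, 7 were lower and 2, Pard6a and Cdc42, higher (4 higher and 3 lower without rescaling). These are 25% and 7.14%, against 11.4% and 9.29% of all genes. Podxl (podocalyxin), a sialomucin of the apical surface that opens the lumen, was at 61.9, 45.2 and 44.4 TPM in the culture and 188, 193 and 188 TPM in the tissue (-1.90 ± 0.13, adjusted p = 2.54e-05), and its linker Slc9a3r1 (NHERF1) at 123, 96.8 and 95.3 against 364, 368 and 381 TPM (-1.82 ± 0.11, adjusted p = 1.43e-05). Ezrin (Ezr), which ties both to actin, was lower by 1.31 on the log2 scale. The visceral endoderm markers differ in the same direction as Podxl, Slc9a3r1 and Ezr, and their part was not tested. Podxl averaged 39.1, 135 and 29.5 TPM in the other cultures, so both 3D cultures and EpiLCs were below 2D EpiSCs. Cldn4 was at 1.64, 1.94 and 2.07 against 18.2, 15.4 and 14.6 TPM (-2.56 ± 0.10, adjusted p = 3.08e-06) and higher in all other cultures (20.5, 43.0 and 36.1 TPM, same-kit contrast -3.49 ± 0.15, adjusted p = 2.44e-08). The simple keratins Krt8 and Krt18 were lower (-1.25 and -1.47). They are also made by visceral endoderm and trophoblast, whose markers differ in the same direction and whose part was not tested.

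Of 33 imprinted genes tested, 10 were lower (30.3%, against 11.4% of all genes) and 3 higher (9.09%, against 9.29%). Without rescaling 8 were higher and 6 lower. The filter was passed by 2 of the 33 through the tissue alone and by 3 through the culture alone. Nnat, a paternally expressed proteolipid, was at 0.682, 1.08 and 1.44 TPM in the culture and 18.2, 15.3 and 17.0 TPM in the tissue (-3.12 ± 0.14, adjusted p = 4.95e-06). The other cultures had far more of it, 114, 76.9 and 47.0 TPM (same-kit contrast -5.16 ± 0.26, adjusted p = 7.6e-08). Rtl1 was at 0.0823, 0.0725 and 0 against 12.7, 8.58 and 9.84 TPM (-3.42 ± 0.13, adjusted p = 2.62e-06) and below 0.1 TPM in every other culture. Igf2 (-2.25), Peg10 (-2.23) and Sfmbt2 (-2.92) were lower too, and all 3 have known roles in extra-embryonic tissues, whose markers also differed and whose part was not tested. Calcr, expressed in both 3D cultures and 2D EpiSCs (35.3, 41.4 and 3.505 TPM in the other 3 cultures), was the largest of the 3 increases, at 42.1, 38.8 and 41.7 against 0.673, 0.747 and 1.18 TPM (adjusted p = 3.79e-07, limma).

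Genes of MHC class I and antiviral defence were split, with 5 of 18 higher and 6 lower (6 higher and 3 lower without rescaling). These are 27.8% and 33.3%, against 9.29% and 11.4% of all genes. The filter was passed by 2 of the 18 through the tissue alone and by 1 through the culture alone. The heavy chain H2-K1 was at 41.0, 57.5 and 64.1 TPM in the culture and 7.64, 7.63 and 7.15 TPM in the tissue (2.68 ± 0.16, adjusted p = 1.4e-05), its light chain B2m at 38.1, 50.4 and 46.3 against 10.5, 10.2 and 11.02 TPM (1.98 ± 0.11, adjusted p = 1.05e-05), and the other cultures were at 87.3, 83.3 and 66.6 and at 38.4, 76.9 and 23.3 TPM. H2 genes are close copies of each other, so H2-K1 is uncertain. Apobec3 (ENSMUSG00000009585.18, chr15:79891659-79915906, mm10), a cytidine deaminase that restricts retroviruses, was nearly absent from the culture. It was at 0.069, 0.202 and 0.0751 TPM there, at 48.5, 44.1 and 45.1 TPM in the tissue (-5.40 ± 0.08, adjusted p = 4.11e-08), and at 23.8, 36.0 and 117 TPM in the other cultures (same-kit contrast -5.41 ± 0.09, adjusted p = 5.64e-12). Bst2 (tetherin), which holds back budding virus, was also below both, at 9.27, 13.6 and 15.2 TPM, 46.7, 44.7 and 55.3 TPM and, in the other cultures, 56.7, 58.1 and 100.5 TPM.

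Cell cycle genes of the G1 phase were higher at 4 of 20 (20%, against 9.29% of all genes) and lower at 2 (10%, against 11.4%). Without rescaling 8 were higher and 0 lower. Besides Cdkn1a, Ccnd2 (cyclin D2) was at 37.7, 71.5 and 71.7 TPM in the culture and 4.19, 4.65 and 4.23 TPM in the tissue (3.46 ± 0.24, adjusted p = 2.67e-05), and its kinase Cdk6 at 38.8, 58.4 and 56.2 against 7.49, 7.63 and 7.81 TPM (2.57 ± 0.15, adjusted p = 1.44e-05). Ccnd2 averaged 15.6, 12.6 and 2.33 TPM in the other cultures (same-kit contrast 2.73 ± 0.24, adjusted p = 7.33e-06). Ccne1 (cyclin E1) and Mycn were lower, at -1.41 and -1.25. Among axon guidance families 4 of 37 (10.8%, against 9.29% of all genes) were higher and 8 lower, a balance that turns with the scaling (9 higher and 6 lower without rescaling). The filter was passed by 3 of the 37 through the tissue alone and by 1 through the culture alone. The ligand Slit3 was at 28.9, 45.4 and 42.2 against 3.09, 2.84 and 2.81 TPM (3.32 ± 0.16, adjusted p = 6.67e-06) and its receptor Robo1 at 4.72, 7.43 and 7.28 against 38.2, 39.0 and 37.2 TPM (-2.41 ± 0.15, adjusted p = 1.75e-05).

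In the large families of housekeeping genes the counts depend on the scaling. Of 76 subunits of the respiratory chain and ATP synthase, 13 (17.1%, against 9.29% of all genes) were higher and 4 lower, with a median of 0.46 (41 higher and 1 lower without rescaling). Of 70 ribosomal proteins, 5 were higher and 5 lower (median 0.23, and 29 higher and 1 lower without rescaling). Of 35 proteasome subunits 3 were higher and 1 lower (median 0.38, and 17 higher and 1 lower without rescaling). Ribosomal protein genes have many processed copies, so single members such as Rps2 are uncertain. Psmb8, the inducible immunoproteasome subunit, was the lower one, at 1.59, 1.14 and 1.04 TPM in the culture and 6.80, 5.38 and 7.46 TPM in the tissue (-1.74 ± 0.14, adjusted p = 4.4e-05). Of 329 genes with Zfp symbols, 16 (4.86%) were higher and 44 (13.4%, against 11.4% of all genes) lower, a balance that turns with the scaling (62 higher and 17 lower without rescaling). Among them Zfp982, Zfp990, Zfp978, Zfp600 and Zfp936, whose family has many close copies and whose levels are uncertain, were lower by 2.16 to 4.30 on the log2 scale, and all 5 were higher in EpiLCs than in the other cultures (148 TPM for Zfp978, against 1.21 TPM in the embryo-derived culture). Gene length moved with the result as well. The median log2 fold change was 0.16 in the shortest of 5 equal length classes and -0.29 in the longest, where 17.9% of genes were lower and 4.36% higher. Its part in the calls was not tested.

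**Figure D5:**
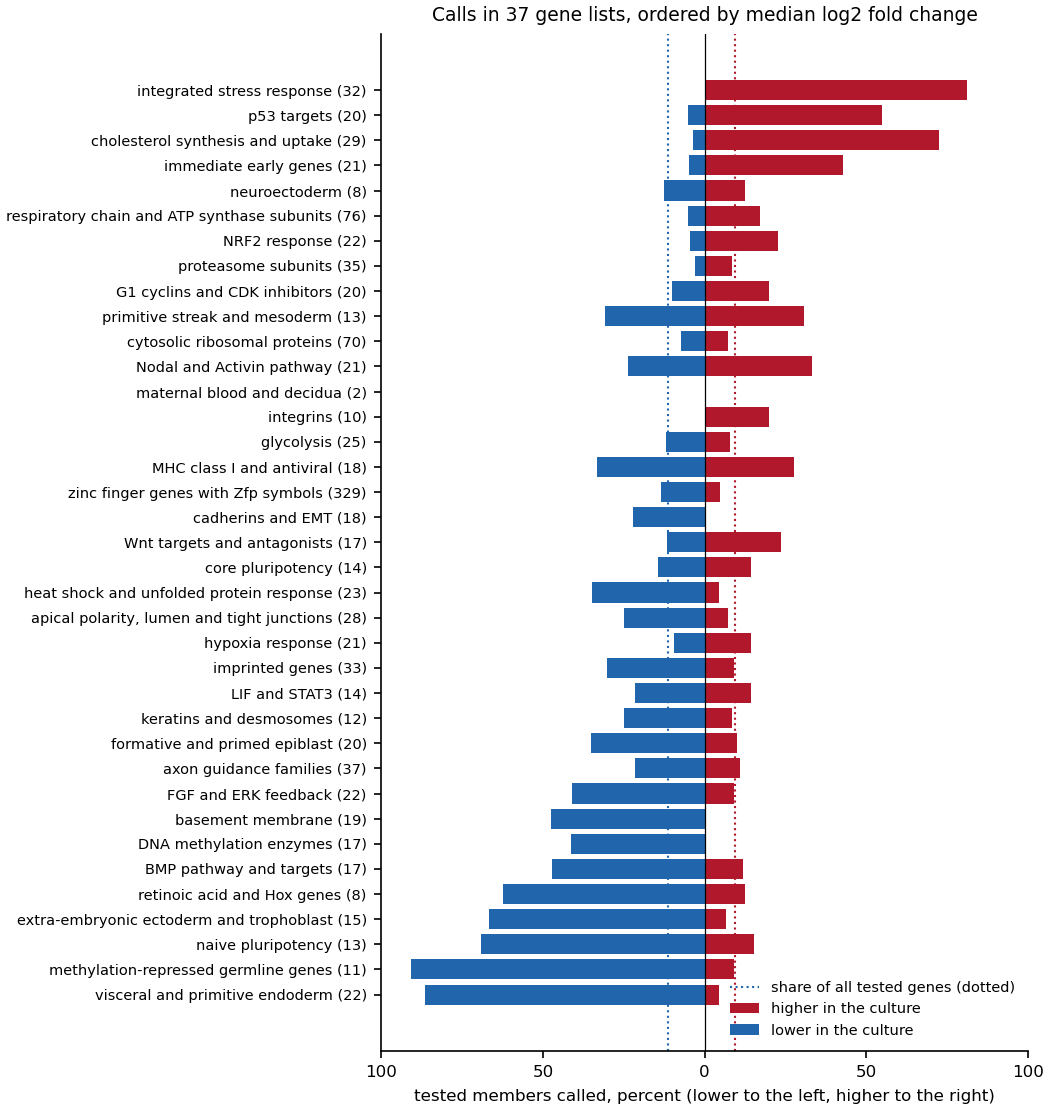
Share of the tested members of 37 gene lists (number tested in brackets) that were called higher (red, to the right) or lower (blue, to the left) in embryo-derived 3D EpiSCs than in E5.5 epiblast, ordered by median log2 fold change. Dotted lines mark the shares of all tested genes, 9.29% higher and 11.4% lower. The integrated stress response (81.2%) and cholesterol synthesis (72.4%) had the highest shares of increases, and germline (90.9%) and visceral endoderm genes (86.4%) the highest shares of decreases, with 9 and 13 of their members tested through the tissue alone. In the integrated stress response, 3 members were tested through the culture alone.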

How the data were processed

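RNA of 27 bulk samples was sequenced by the authors. Per the methods of the study, cutadapt 2.4 clipped adapters, STAR mapped reads to the mm10 genome, and StringTie quantified the GENCODE genes. The deposited values are TPM per gene and library, normalised to library total and gene length by the authors, with no counts and unknown depth. Culture libraries were made by poly-A capture, embryo libraries by a total RNA kit with depletion of ribosomal cDNA. TPM was rescaled by median-of-ratios factors over 10630 genes. Autosomal protein-coding genes without Hist or mt- symbols and above 2 TPM in at least 3 of the 6 libraries were tested with limma 3.58.1 (R 4.3.3, Benjamini-Hochberg adjustment over 10770 genes) on log2(TPM + 1), so fold changes of low genes are understated. The fit was tested on simulated data with known changes. A count test was not possible on TPM. The study's own count-based comparisons were not used.

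Named genes were 12 per direction, those that changed most among genes without overlap and with a mean of at least 10 TPM in the higher group, up to 6 called members of each of 37 gene lists with the largest change, and a fixed set of markers. Acvr2b, Ascl2, Asns, Atf4, Cdc42, Etv1, Fst, Hhex, Id4, Ier5, Klf2, Mael, Pard6a, Pck2, Pcsk6, Pdgfra, Tdrkh and the genes of the integrated stress response that were not called were named after their values were seen. Members and lists were chosen with earlier results of these data known, and several genes stand on more than 1 list. Promoters came from RefSeq (GRCm38.p6). Alternatives were other scalings, pseudocount, filters, variance models, sample sets, a replicate block and leaving out each library. Tables were handled with pandas 2.3.3 and numpy 2.4.6 and drawn with matplotlib 3.10.9 (Python 3.11.15). Some genes are not reported here, and single-cell and bisulfite libraries were not analysed here.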

Additional observations from a re-analysis of the deposited data

How the results depend on the processing

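The main counts were 1000 genes higher and 1224 lower. Without rescaling they were 2845 and 580, and with a mean above 10 TPM (7575 genes tested) 623 and 636, the latter by construction from fewer genes. In every other setting tried both counts stayed within 1.5 times the main ones: upper-quartile factors gave 1055 and 1179, quantile normalization 1119 and 1135, a pseudocount of 0.1 gave 1209 and 1353, no filter 1049 and 1515, and replicates 2 and 3 of the culture counted as 1 gave 997 and 1235. Leaving out 1 library at a time gave 997 to 1033 higher and 1209 to 1238 lower. The replicate numbers do not pair the samples, since deviations of same-numbered libraries had correlations of 0.00912, -0.00981 and -0.0192, and the fit with the replicate number as a block gave 999 and 1223. Leaving out the 74 genes below 1 TPM in all 4 cultures, an alternative added after seeing the data, left 1150 lower. Of 191 named genes that were called, 158 kept the call in every alternative. The direction turned at Cdh1 (0.42) and Otx2 (0.44), both without rescaling and both uncalled in the main setting. Apart from the scaling, calls were lost at Cer1 with all groups in 1 fit, at Crabp1, Dhrs3 and Psmb2 without replicate 1 of the culture, at Slc2a1 without its replicate 3, at Dhrs3 without replicate 2 of the tissue, and at Slc16a1 and Krt19 in 4 and 5 of the settings that left out or averaged libraries. The cause was not tested. Depth is unknown, so the precision of low values cannot be given. The kit and the group cannot be told apart in any setting.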

Other observations

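Genes that the filters kept out of the comparison also differed in level between the groups, and they were not tested. The imprinted lincRNA H19, which is expressed from the maternal allele, was at 758, 727 and 693 TPM in the 3 E5.5 libraries and at 0.286, 0.331 and 0.259 TPM in the culture. It averaged 2.56, 13.7 and 6.99 TPM in the other cultures (ESC-derived 3D EpiSCs, 2D EpiSCs, then EpiLCs) and 1204 TPM at E6.5. The visceral endoderm markers were likewise near absent from the culture and higher at E6.5 than at E5.5, and their part in H19 was not tested. Its neighbour Igf2 was lower as well, at 5.64, 6.67 and 6.36 against 33.8, 30.2 and 35.9 TPM (-2.25 ± 0.09, adjusted p = 3.35e-06, limma). The lincRNAs of another imprinted domain had smaller gaps. Meg3 was at 147, 135 and 148 TPM in the culture and 217, 192 and 191 TPM in the tissue, and Rian at 414, 525 and 525 against 712, 704 and 687 TPM.

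On the sex chromosomes, the Y-linked gene Ddx3y was at 49.1, 48.9 and 49.9 TPM in the culture and 14.3, 16.3 and 16.3 TPM in the tissue, whose pools are labelled as male and female. Xist, which coats the inactive X in female cells, was at 1.40, 3.31 and 3.19 against 59.0, 60.2 and 58.7 TPM. The X-linked homeobox gene Rhox5 was at 190.2, 160.4 and 159.8 TPM in the tissue and 0.752, 1.45 and 1.33 TPM in the culture, and averaged 478 TPM in EpiLCs and 246 TPM at E6.5. The part of visceral endoderm in Rhox5 was not tested. Sox3, an X-linked relative of Sox2, was at 14.8, 20.5 and 19.97 against 64.1, 67.3 and 70.3 TPM.

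The small nuclear RNA Rn7sk, which has no poly-A tail, was at 15007, 12793 and 14762 TPM in the tissue and 16.7, 37.3 and 32.4 TPM in the culture, and mitochondrial genes held 9.84 to 10.4% of the TPM of the tissue and 4.69 to 6.52% of that of the culture. The kit and the group cannot be told apart in these values. All genes of these paragraphs except Igf2 were chosen after their values were seen.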
